A study of Mus musculus with 10 samples.

Results

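The genes described are 10 that encode proteins of cytoplasmic RNA granules: 6 RNA-binding or granule proteins studied in lens or in RNA transport (Tdrd7, Caprin2, Celf1, Stau1, Stau2 and Rbm24) and 4 proteins of processing bodies, or P-bodies (Dcp1a, Ddx6, Edc4 and Xrn1). They form a list of gene names, and all 10 were found among the 19938 genes tested. Celf1 had 2 probe sets and the other members 1 each, and of several probe sets the brightest on average stood for the gene. Expression was measured in lenses of mouse embryos at E13.5 (E stands for embryonic day) that did or did not have a targeted deletion of Dicer, the ribonuclease that makes mature microRNAs. DicerCN embryos had the genotype Le-Cre+/-;Dicer loxP/loxP, with Cre recombinase under the Pax6 P0 promoter, which is active in the epithelium of lens and cornea, both derived from surface ectoderm. Control embryos were Le-Cre-/-;Dicer loxP/loxP, so they had the flanked Dicer alleles but lacked Cre, although the sample titles call them wild type. Effects of the Le-Cre transgene itself and of the loss of Dicer cannot be told apart with these 2 groups. There were 5 embryos in each group, and both lenses of an embryo were hybridised together to 1 array.

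P-bodies are granules in the cytoplasm where messenger RNAs that are not translated meet the enzymes that remove the cap and degrade the message from its 5′ end. MicroRNA silencing ends at the same enzymes: Argonaute proteins bound to microRNAs recruit Tnrc6 proteins and deadenylases, then the helicase Ddx6 and the decapping complex, and visible P-bodies are known to depend on active silencing. The lens has its own need for RNA granules, because fibre cells lose their nuclei and rely on stored messages, and loss of Tdrd7 causes cataract in humans and mice. The comparison asks how the messages of these granule proteins stood in lenses whose precursor cells had the deletion.

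The medians of the arrays (log2) ran from 6.54 to 6.56, and correlations between arrays ran from 0.977 to 0.990. Defining lens genes were well expressed in both groups: the crystallin gene Cryaa averaged 14.42 in control and 14.36 in DicerCN lenses, and 0 of 11 lens markers passed the test. All but Cryab (0.20) had negative estimates, however, with a median change of −0.12 (DicerCN minus control, log2). The lowest were Bfsp1 (−0.45, limma adjusted p = 0.218), Pitx3 (−0.40, adjusted p = 0.0611) and Lim2 (−0.33, adjusted p = 0.189). The Dicer1 probe set changed by 0.13 (SE 0.08, limma adjusted p = 0.472), and since it can lie outside the flanked exons it does not check the labels. Other tissues were present unevenly. A marker score is the mean log2 signal of a list minus its control mean. The neural retina score ran from −0.18 to 0.29 in controls and from −0.17 to 1.47 in DicerCN lenses, where replicates 4 and 5 stood at 0.80 and 1.47 (0 of 9 markers passed). The pigment epithelium score was 0.86, 1.42 and 0.97 in DicerCN replicates 1, 4 and 5 and at most 0.18 elsewhere (0 of 8 passed), and the macrophage score ran from −0.36 to 0.37 in controls and from 0.21 to 1.13 in DicerCN lenses (2 of 12 passed). Control replicate 4 had a striated muscle score of 2.50, against −0.44 or less on the 9 other arrays. These are bulk samples, so fewer cells of a type and less RNA per cell cannot be told apart.

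Tdrd7 fell in DicerCN lenses, and it was the only member that passed the test. A gene passed when its limma p-value, adjusted over all genes by the method of Benjamini and Hochberg, was under 0.05. A change is the DicerCN mean minus the control mean of log2 signals, and its error is the standard error (SE) of the fit. In all, 0 members rose and 1 of 10 fell by limma. At the same adjusted threshold 6.54% of all genes tested passed in either direction, 2.56% higher and 3.97% lower. The share of members that passed was thus near the background. At an unadjusted p under 0.05 the numbers of members were the same. The share of all genes under that unadjusted threshold is not given, so unadjusted counts here and below have no background beside them. The median change of the members was −0.0072, against −0.0014 over all genes, and 5 members had a positive and 5 a negative estimate.

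Tdrd7 encodes a protein with Tudor domains that is a component of RNA granules in lens fibre cells. Its log2 signals were 12.60, 12.40, 12.46, 12.34 and 12.46 in control replicates 1 to 5 and 12.18, 11.97, 12.12, 11.73 and 11.69 in DicerCN replicates 1 to 5. Every DicerCN array lay below every control array, with a gap of 0.16 between the groups. All arrays of 1 group lay on 1 side of the other in 7.38% of the genes tested, with 2.96% of genes higher and 4.42% lower in DicerCN lenses. Of the members, 1 of 10 was of this kind. The fall was 0.52 on the log2 scale (SE 0.10, 95% confidence interval −0.74 to −0.29, limma adjusted p = 0.0112), which is 1.43-fold. The exact 2-sided permutation p was 0.00794, the smallest that 5 arrays against 5 allow. Control arrays varied by an SD of 0.10 and DicerCN arrays by an SD of 0.22 (n = 5 each).

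**Figure D1:**
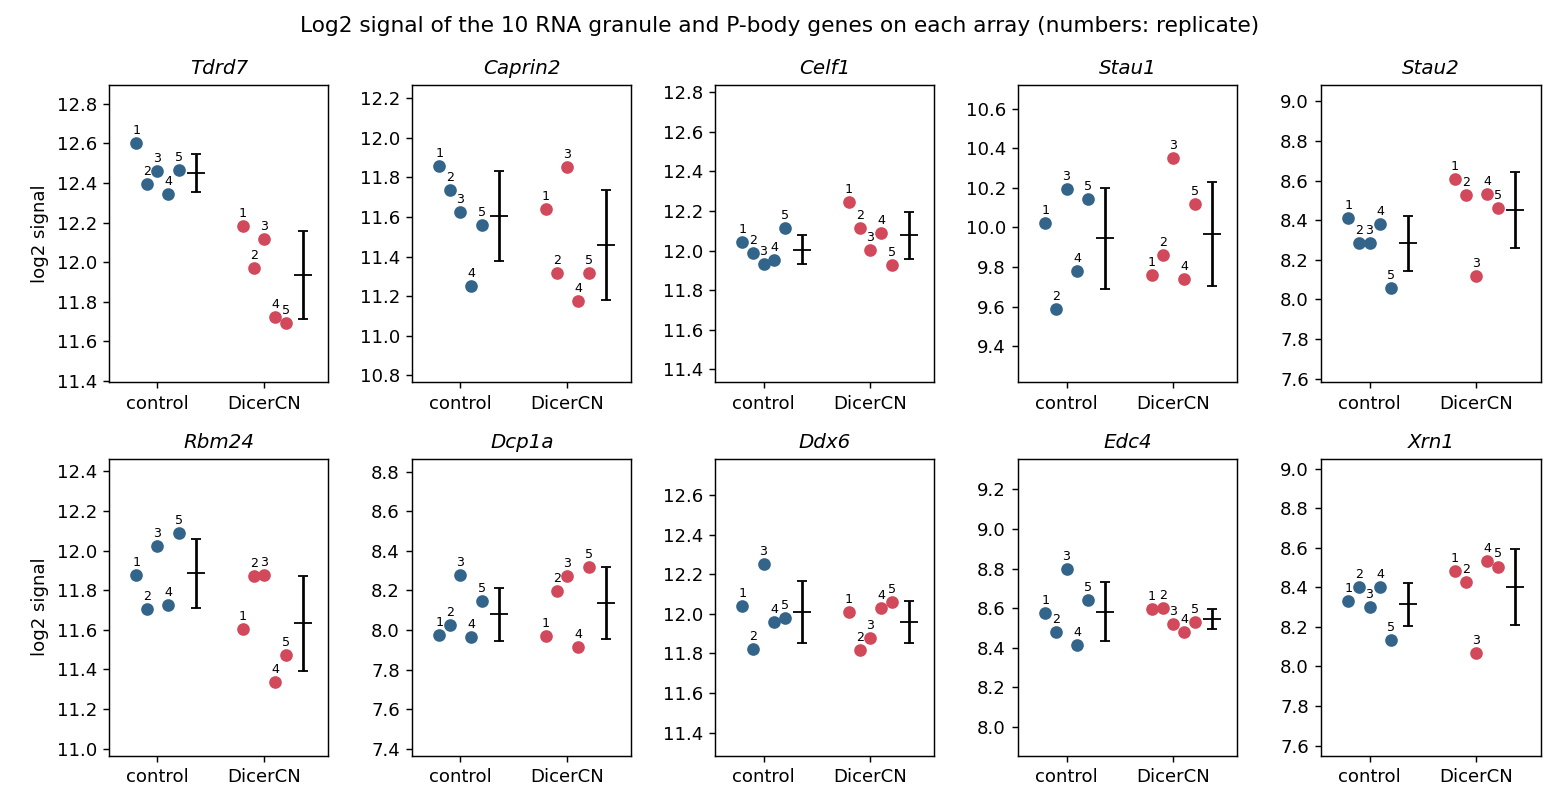
Log2 signal of each of the 10 genes on each array (points; numbers give the replicate), for control (blue) and DicerCN (red) lenses, with the group mean ± SD (black, n = 5 each); every panel spans 1.5 log2 units. In Tdrd7 the 5 DicerCN arrays lie at 12.18 or below and the 5 control arrays at 12.34 or above, and in the 9 other genes the groups overlap.

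The lowest Tdrd7 signals, 11.73 and 11.69, were on the DicerCN arrays with the highest neural retina scores, replicates 4 and 5. The fall was smaller when those scores entered the fit or when those arrays were left out. With the neural retina score as a covariate it was 0.37 (SE 0.09, limma adjusted p = 0.0476), and with the lens marker score, which was lowest on DicerCN replicate 5 at −0.49, it was 0.41 (adjusted p = 0.0194). With the pigment epithelium score the change was −0.40 (SE 0.13) and did not pass (adjusted p = 0.117). Without DicerCN replicates 4 and 5 it was −0.36 (SE 0.09) and did not pass (adjusted p = 0.0508). With the macrophage score it was −0.62 with a wider error (SE 0.15) and did not pass (adjusted p = 0.0877). When any 1 array was left out the change stayed between −0.58 and −0.45 and the call held, at adjusted p of at most 0.0375.

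**Figure D2:**
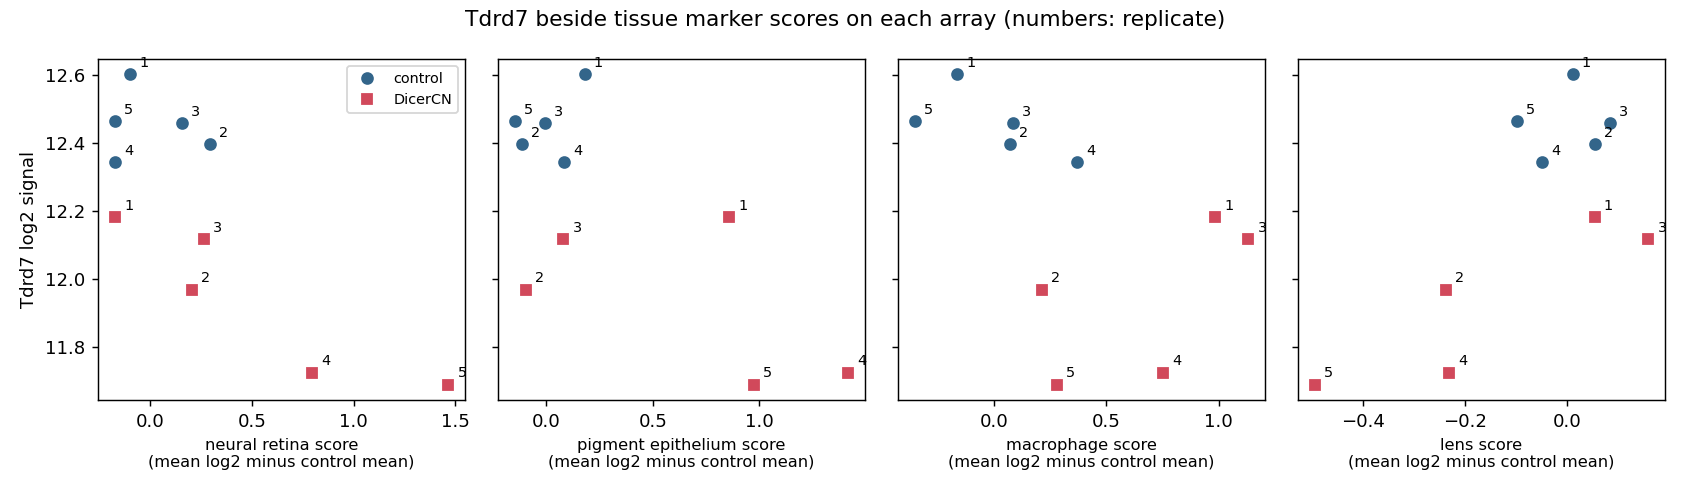
Tdrd7 log2 signal (vertical axis) against the neural retina, pigment epithelium, macrophage and lens marker scores of the same array (horizontal axes, mean log2 signal of the markers minus their control mean), for control (blue circles) and DicerCN (red squares) arrays, numbered by replicate. DicerCN replicates 4 and 5 combine the lowest Tdrd7 signals with the highest neural retina scores, 0.80 and 1.47. DicerCN replicate 1 has scores of −0.17 for neural retina, 0.86 for pigment epithelium and 0.99 for macrophages. The cause of the Tdrd7 fall was not tested.

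**Figure D3:**
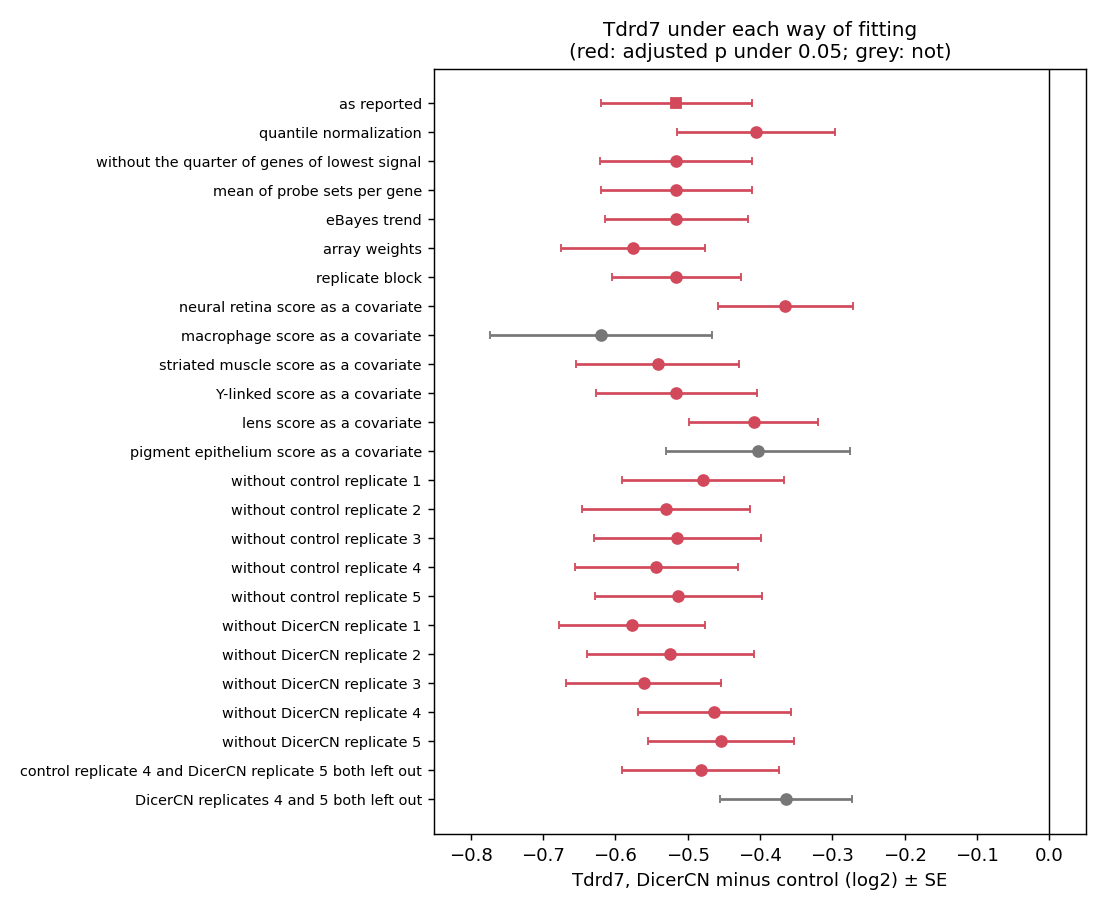
Change of Tdrd7, DicerCN minus control on the log2 scale (horizontal axis, points with ± SE), as reported (square) and under each of 24 other ways of fitting (circles); red marks an adjusted p under 0.05 and grey an adjusted p at or above it. All estimates lie between −0.62 and −0.36, and 21 of the 24 pass. The fits with the low-signal filter, the mean of probe sets, the variance trend and the replicate block could not move the estimate from −0.52. They could change only its error and adjusted p.

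Rbm24, an RNA-binding protein of lens and striated muscle that acts on splicing and message stability, had the next lowest estimate. Its signals were 11.88, 11.71, 12.02, 11.73 and 12.09 in controls and 11.60, 11.87, 11.88, 11.34 and 11.47 in DicerCN lenses. All 5 DicerCN arrays lay below the control mean and 3 lay below every control, those of replicates 1, 4 and 5, while replicates 2 and 3 lay within the control range. The change was −0.25 (SE 0.12, 95% confidence interval −0.51 to 0.01, limma adjusted p = 0.289) and did not pass. The same 3 replicates had the highest pigment epithelium scores, and with that score as a covariate the change was −0.01 (adjusted p = 0.972). The striated muscle score was high on control replicate 4, where Rbm24 stood at 11.73. With that score as a covariate the Rbm24 change was −0.29 (SE 0.13, limma adjusted p = 0.255), and the cause was not tested.

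Caprin2, an RNA granule protein expressed in lens fibre cells, had signals of 11.86, 11.74, 11.63, 11.25 and 11.56 in controls and of 11.64, 11.32, 11.85, 11.18 and 11.32 in DicerCN lenses. Control replicate 4 and DicerCN replicate 4 were lowest in their groups, and the groups overlapped almost fully. The change was −0.15 (SE 0.14, interval −0.45 to 0.16, limma adjusted p = 0.661). It ran from −0.24 to −0.08 with 1 array left out, and it stood at −0.05 after quantile normalization, at −0.0047 with the lens score as a covariate and at −0.0041 without DicerCN replicates 4 and 5.

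Celf1, which binds GU-rich elements and controls splicing, translation and decay of messages in lens, was the member measured with the smallest error. Its signals were 12.04, 11.99, 11.93, 11.95 and 12.11 in controls and 12.24, 12.11, 12.003, 12.09 and 11.93 in DicerCN lenses, with DicerCN replicate 5 at the low end of both groups. The change was 0.07 (SE 0.08, interval −0.10 to 0.24, limma adjusted p = 0.706). The other Celf1 probe set stood at 10.99 ± 0.11 in controls and 11.09 ± 0.26 in DicerCN lenses (SD, n = 5 each). Its change was 0.11 (SE 0.12, adjusted p = 0.71 over all probe sets), so both estimates were above 0 and neither passed.

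Stau1 and Stau2 are paralogs that bind double-stranded stretches of messages, carry them in transport granules and, through Upf1, can send them to decay. Stau1 signals were 10.02, 9.59, 10.19, 9.78 and 10.14 in controls and 9.76, 9.86, 10.35, 9.74 and 10.12 in DicerCN lenses. It had the widest spread of the members within controls (SD 0.26) and an estimate close to 0 (0.02, SE 0.14, interval −0.29 to 0.33, limma adjusted p = 0.964), whose sign turned in several of the other fits. Stau2 signals were 8.41, 8.29, 8.28, 8.38 and 8.06 in controls and 8.61, 8.53, 8.12, 8.53 and 8.46 in DicerCN lenses. In Stau2, 4 of 5 DicerCN arrays lay above every control and DicerCN replicate 3 lay near the lowest control, and the change of 0.17 did not pass (SE 0.10, interval −0.06 to 0.39, limma adjusted p = 0.441).

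The difference of change between paralogs was tested directly, within arrays. The Stau1 change minus the Stau2 change was −0.15 (exact permutation p = 0.563), and the change of Celf1 minus that of Celf2, a paralog abundant in brain and muscle, was −0.24 (exact permutation p = 0.508). Adjusted over these 2 pairs both p-values were 0.563. No difference between paralogs was therefore detectable with 5 arrays a group, which does not show that they change alike. The sign of the Celf difference turned, with no test, to 0.24 with the neural retina score as a covariate, to 0.08 with the pigment epithelium score and to 0.16 without DicerCN replicates 4 and 5. The Staufen difference turned to 0.08 with the pigment epithelium score.

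The 4 P-body members had estimates within 0.09 of 0, and none passed. Ddx6, the DEAD-box helicase that links silenced messages to decapping, had signals of 12.04, 11.82, 12.25, 11.96 and 11.98 in controls and of 12.01, 11.82, 11.88, 12.03 and 12.06 in DicerCN lenses. Apart from control replicate 3, the highest array, both groups covered the same range. Its change was −0.05 (SE 0.09, interval −0.24 to 0.14, limma adjusted p = 0.840), and the sign turned to 0.08 after quantile normalization and to 0.0091 without control replicate 3.

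Edc4, the scaffold on which the decapping enzyme and its activators assemble, had signals of 8.57, 8.48, 8.80, 8.41 and 8.64 in controls and of 8.59, 8.60, 8.52, 8.48 and 8.53 in DicerCN lenses. The DicerCN arrays all lay inside the control range, with an SD of 0.05 against 0.15 in controls (n = 5 each; the difference in spread was not tested). The change was −0.04 (SE 0.08, interval −0.21 to 0.14, limma adjusted p = 0.884).

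Dcp1a, the activator of the decapping enzyme Dcp2, had signals of 7.97, 8.03, 8.28, 7.97 and 8.15 in controls and of 7.97, 8.20, 8.27, 7.91 and 8.32 in DicerCN lenses. The lowest and the highest array of all 10 were both DicerCN arrays, replicates 4 and 5, and the change was 0.06 (SE 0.10, interval −0.16 to 0.27, limma adjusted p = 0.844). Xrn1, the exonuclease that degrades decapped messages from the 5′ end, had signals of 8.33, 8.40, 8.30, 8.40 and 8.13 in controls and of 8.48, 8.43, 8.07, 8.53 and 8.51 in DicerCN lenses. As in Stau2, 4 of 5 DicerCN arrays lay above every control and replicate 3 lay low, here below every control, and the change was 0.09 (SE 0.10, interval −0.12 to 0.30, limma adjusted p = 0.711).

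**Figure D4:**
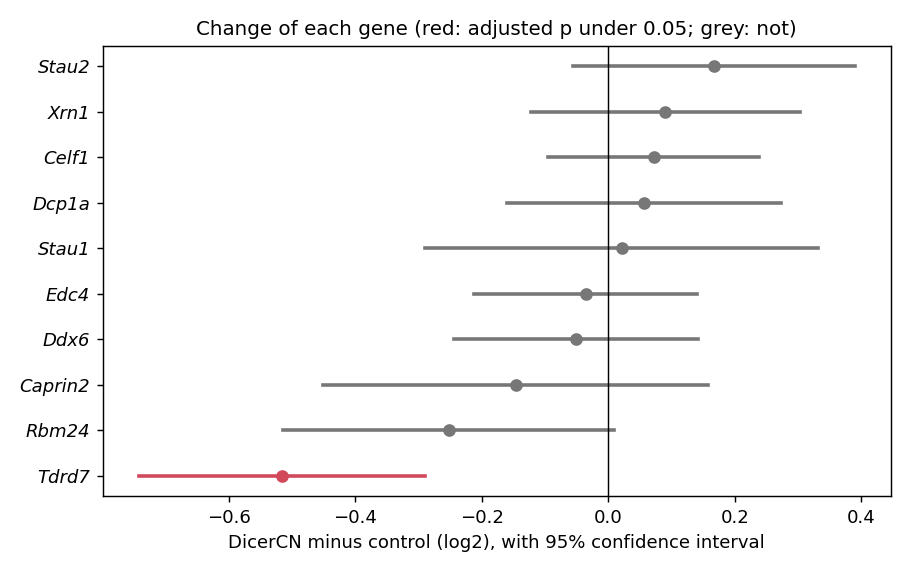
Change of each of the 10 genes, DicerCN minus control on the log2 scale (horizontal axis), with its 95% confidence interval (line); red marks an adjusted p under 0.05 and grey the rest. The interval of Tdrd7, −0.74 to −0.29, does not reach 0, and those of the 9 other genes include 0.

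Together, the intervals of the 9 members that did not pass reached no lower than −0.51 (Rbm24) and no higher than 0.39 (Stau2). The fall of Tdrd7 was also set against the change of each other member within arrays, a comparison chosen after its value was seen. The change of Tdrd7 minus that of the other member was nearest to 0 for Rbm24, at −0.26, and farthest for Stau2, at −0.68. Against Caprin2, the other granule protein of fibre cells, the difference was −0.37. Tdrd7 was picked because it fell, and all 9 comparisons share its values. Negative differences were thus largely fixed by the choice, and no test is given.

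Several members had their highest or lowest array in common. Within the DicerCN group, replicate 4 held the lowest signal of 5 members (Caprin2, Stau1, Rbm24, Dcp1a and Edc4) and the highest of Xrn1. Replicate 3 held the highest signals of Caprin2, Stau1 and Rbm24 and the lowest of Stau2 and Xrn1. Among controls, replicate 3 was highest in Stau1, Dcp1a, Ddx6 and Edc4, replicate 4 was lowest in Tdrd7, Caprin2, Dcp1a and Edc4, and replicate 5 was lowest in Stau2 and Xrn1. Stau2 and Xrn1 thus had their lowest array in common in both groups, as a description of these arrays.

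The genes whose profile lay closest to that of Tdrd7 were Gprc5b, a G protein-coupled receptor, Ccs, the copper chaperone of superoxide dismutase, and Sdhb, a subunit of succinate dehydrogenase. Closeness was the root mean square difference, over the 10 arrays, between log2 signals taken minus their own control mean, and it was 0.045 for Gprc5b, 0.088 for Ccs and 0.088 for Sdhb. Their changes were −0.50, −0.43 and −0.50, and since they were picked for likeness to Tdrd7, a fall of about its size was fixed by the choice and no test is given.

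Other genes of RNA granules and message decay were taken from 11 lists, which leave out the 10 members. Of their 137 measured genes 9 rose and 7 fell, with a median change of −0.016, against 6.54% of all genes passing in either direction. The genes named are up to 4 per list by smallest p, with all that passed.

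Of 16 decapping and P-body factors 0 rose and 3 fell, and the list median was −0.026. All 3 belong to the ring of Lsm1 to Lsm7 that binds the 3′ end of deadenylated messages and activates decapping. Lsm4, shared like Lsm6 and Lsm7 with the nuclear ring that serves splicing, had signals of 9.29, 9.39, 9.27, 9.27 and 9.18 in controls and of 8.84, 8.70, 8.44, 8.85 and 8.97 in DicerCN lenses, with no overlap. It fell by 0.52 (SE 0.10, limma adjusted p = 0.00692), Lsm7 by 0.40 (SE 0.10, adjusted p = 0.0389) and Lsm6 by 0.38 (SE 0.09, adjusted p = 0.0280). The 4 other ring genes, named after their values were seen, also had negative estimates, Lsm5 −0.25, Lsm3 −0.19, Lsm1 −0.18 and Lsm2 −0.13, and did not pass. The decapping factor Patl1, which bridges Ddx6 and the ring, stood at 0.15 (adjusted p = 0.355). The Lsm4 call held with any 1 array left out. That of Lsm6 did not survive leaving out control replicate 1, 2 or 3, or DicerCN replicate 2 or 3 (one array at a time, adjusted p from 0.0544 to 0.0707), and that of Lsm7 leaving out any of control replicates 1 to 4 or of DicerCN replicates 2, 3 and 5 (0.0562 to 0.0962).

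Of 17 genes of deadenylation, the removal of the poly(A) tail that precedes decapping, 0 rose and 0 fell by limma, although Cnot6l, a catalytic subunit of the CCR4-NOT complex, stood at 0.28 (adjusted p = 0.0719) and was the only gene of the list with an unadjusted p under 0.05. It passed when control replicate 4 was left out (adjusted p = 0.0499), after quantile normalization (adjusted p = 0.0454) and with the lens score as a covariate (adjusted p = 0.0456). Of 17 genes of other exonucleases and the exosome, which degrades messages from the 3′ end, 0 rose and 2 fell, with a list median of −0.092. Dis3l2, an exonuclease of uridylated RNAs, fell by 0.32 (SE 0.08, adjusted p = 0.0410) and Exosc4, an exosome subunit, by 0.31 (SE 0.09, adjusted p = 0.0493), with no overlap between groups in either. Both calls lay close to the threshold: that of Dis3l2 held only without control replicate 4 or DicerCN replicate 5, and that of Exosc4 only without control replicate 4, with adjusted p up to 0.118 and 0.136 without the other arrays. Of 9 genes of nonsense-mediated decay 0 rose and 0 fell by limma, and 1 had an unadjusted p under 0.05, Nbas (−0.23, adjusted p = 0.185).

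Of 14 stress granule proteins 1 rose and 0 fell. Ddx3x, an X-linked DEAD-box helicase of translation initiation, rose by 0.46 (SE 0.10, limma adjusted p = 0.0142), and the core stress granule protein G3bp1 stood at −0.12 (adjusted p = 0.359). The mean over the probe sets of Ddx3x changed by 0.59 and did not pass (adjusted p = 0.0526). The Ddx3x call held with the Y-linked score as a covariate but not with replicate number as a block (adjusted p = 0.0503). Y-linked scores were 1.33 or more on control replicates 1, 4 and 5 and DicerCN replicates 3 and 4. They were −2.30 or less on the other arrays, so each group held both sexes. Of 16 transport granule proteins and translational repressors 2 rose and 1 fell. Cpeb1, which binds a uridine-rich element near the poly(A) signal and controls translation, had signals of 8.996, 8.93, 8.81, 8.55 and 8.81 in controls and of 10.33, 9.94, 9.84, 9.56 and 9.34 in DicerCN lenses. It rose by 0.98 (SE 0.16, adjusted p = 0.00299), or 1.98-fold, while its paralog Cpeb3 fell by 0.54 (SE 0.11, adjusted p = 0.0112). Igf2bp1, a granule protein that stabilises messages, rose by 0.41 (SE 0.09, adjusted p = 0.0165).

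**Figure D5:**
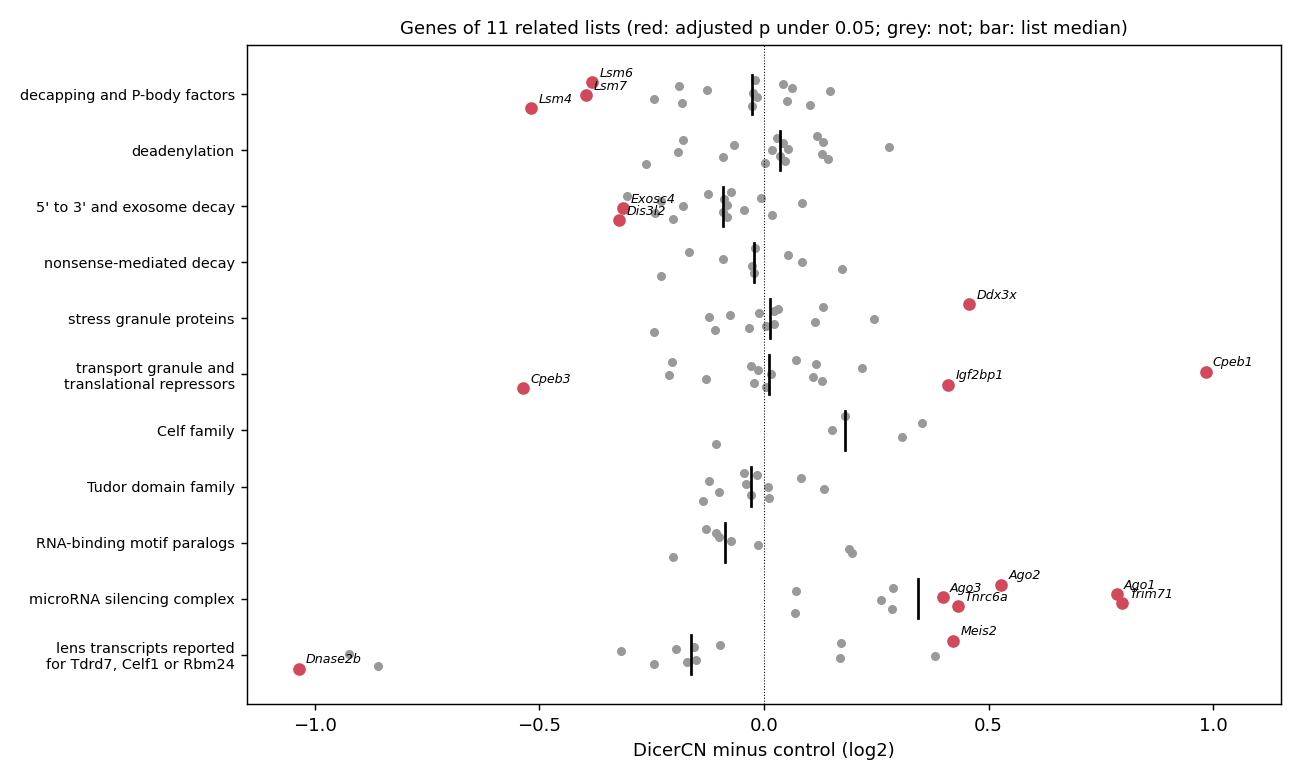
Change of each measured gene of the 11 lists, DicerCN minus control on the log2 scale (horizontal axis), with 1 row per list; red points passed the test and are named, grey points did not, and the black bar is the list median. Most genes lie near 0. Lsm4, Lsm6 and Lsm7 stand at −0.52, −0.38 and −0.40 among the P-body factors. The 10 genes of the silencing complex list, Trim71 included, all lie above 0.

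In the lists of paralogs and relatives of Celf1, Tdrd7 and Rbm24 no gene passed. Of 5 other Celf genes, 11 Tudor domain genes and 8 paralogs or relatives of Rbm24, 0 rose and 0 fell by limma, and 0 had an unadjusted p under 0.05. By the exact permutation test 1 of these 24 did, Celf5, at 0.15 (p = 0.0476, not adjusted). The shares of all genes at these unadjusted thresholds are not given, so neither count is a result about these genes. The microRNA silencing complex meets the P-body members at deadenylation and decapping. In its list, which also holds Trim71, 5 of 10 genes rose and 0 fell, with a list median of 0.34 against −0.0014 over all genes. Of the 7 Argonaute and Tnrc6 genes alone, 4 rose and 0 fell. Ago1 rose by 0.79 (limma adjusted p = 0.000163), Trim71, a ubiquitin ligase that represses messages, by 0.80 (adjusted p = 0.000798), Ago2 by 0.53 (adjusted p = 0.0133), Tnrc6a by 0.43 (adjusted p = 0.0205) and Ago3 by 0.40 (adjusted p = 0.0400). The call of Tnrc6a failed when control replicate 1 was left out (adjusted p = 0.0610), and that of Ago3 was lost without any 1 array other than control replicate 3 or DicerCN replicate 5 (0.0570 to 0.105).

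The last list holds lens messages reported to bind or to depend on Tdrd7, Celf1 or Rbm24, and 1 of 14 rose and 1 fell, with a list median of −0.16. Dnase2b, the nuclease that removes DNA from fibre cell nuclei and a reported Celf1 target, had signals of 7.26, 7.45, 6.76, 6.53 and 6.36 in controls and of 6.36, 5.67, 6.49, 5.52 and 5.14 in DicerCN lenses. The groups overlapped, with DicerCN replicates 2, 4 and 5 below all controls. It fell by 1.04 (SE 0.27, limma adjusted p = 0.0391), or 2.05-fold, and the call failed when any of control replicates 1 to 3 or of DicerCN replicates 2, 4 and 5 was left out (adjusted p from 0.0745 to 0.106). Meis2, a transcription factor of early eye development, rose by 0.42 (SE 0.09, adjusted p = 0.0166) with no overlap between groups. Crybb3 and Hspb1, a beta crystallin and a small heat shock protein whose messages are reported to fall in lenses without Tdrd7, stood at −0.24 (adjusted p = 0.101) and −0.20 (SE 0.19, adjusted p = 0.671). Hspb1 was chosen with its value in view, and its negative estimate rested on control replicate 4, the array with the high striated muscle score, at 7.41 against 6.28 to 6.41 on the other controls. Without that array the Hspb1 change was 0.01 (SE 0.10). Within this list 10 estimates were negative and 4 positive. Sparc, also named with its value in view, stood at 0.17 (SE 0.08, limma adjusted p = 0.283). In Sparc, 4 of 5 DicerCN arrays lay above every control. Crybb3 passed without DicerCN replicate 1 (adjusted p = 0.0494). Sox2, a transcription factor whose message Rbm24 is reported to stabilise, stood at 0.38 (adjusted p = 0.0801) and passed in the fit blocked by replicate number (0.0334) and when control replicate 1 (0.0433) or DicerCN replicate 3 (0.0437) was left out. It is also among the 9 measured markers of the neural retina score, which was high on DicerCN replicates 4 and 5. Sox2 stood at 9.31 and 9.43 on those arrays. Its highest signal was on DicerCN replicate 1, at 9.61, where that score was −0.17. Sox2 is part of the score, so the score is not independent of it, and the cause was not tested.

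Of the 16 calls in these lists, only those of Ago1 and Trim71 were kept with the macrophage score as a covariate, a fit in which the calls over all genes went from 511 higher and 792 lower to 55 and 150. With the neural retina score as a covariate 9 of the 16 were kept and 7 lost: those of Lsm6 (limma adjusted p = 0.0585), Lsm7 (0.0875), Dis3l2 (0.0522), Exosc4 (0.106), Cpeb3 (0.0540), Igf2bp1 (0.0683) and Dnase2b (0.181). With the pigment epithelium score 7 of the 16 were kept, and without DicerCN replicates 4 and 5 the number was 8.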

How the data were processed

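Total RNA (100 ng) from the lens pair of each embryo was labelled with biotin by the standard Affymetrix assay for whole transcripts and hybridised to 1 array, per the labels' protocols. GCOS, the scanner software, is named in the submitters' processing notes. The scale of the deposited values was read as log2 from their range (1.91 to 15.2), and array medians were nearly equal. What the authors did to summarise probes and scale arrays was not given in the sources used here, so shifts common to all genes are not measured. An array gives no count of molecules, and the number of arrays limits the precision.

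Symbols came from GEO's platform annotation: 21789 probe sets had 1 symbol, 1621 several and 12147 none, and the last 2 kinds were left out. For 999 genes with several probe sets, that with the highest mean was used. All 10 members matched the RefSeq gene table of GRCm38.p6 by gene ID. Coordinates are left out, since no source used here names the genome build of the array.

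Groups were compared with limma 3.58.1 (R 4.3.3; lmFit and eBayes, default settings, 2-sided), adjusted over all 19938 genes at a threshold of 0.05. Single values had exact 2-sided permutation tests over the 252 splits of 10 arrays into 5 and 5. The fit was tested on simulated data. Genes were named by rule: all members, up to 4 of each list by smallest p, and the 3 nearest profiles of each member that passed. Genes outside the rule are marked, except Ago3, which is the fifth by p in its list and is named because it passed. The members and lists were chosen with earlier results of these data known. The lists come from general knowledge. Alternatives were quantile normalization, leaving out the genes of lowest mean signal (a share of 0.25), the mean of probe sets, a variance trend, array weights, a replicate block, marker scores (neural retina, macrophage, striated muscle, Y-linked) as covariates, leaving out each array, and a fit lacking both control replicate 4 and DicerCN replicate 5. The lens and pigment epithelium scores and leaving out DicerCN replicates 4 and 5 were added after seeing the data. Scores of periocular mesenchyme ran from −0.39 to 0.90 in control and from −0.32 to 1.01 in DicerCN lenses, of endothelium from −0.25 to 0.26 and from −0.35 to 0.80, of erythroid cells from −0.56 to 0.40 and from −0.00019 to 0.46, of surface ectoderm and cornea from −0.12 to 0.09 and from −0.13 to 0.25, and of Y-linked genes from −2.79 to 1.84 and from −2.37 to 1.84.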

Additional observations from a re-analysis of the deposited data

Results flagged for a closer look

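In 108 groups of 5 arrays (the members and the named list genes, in each genotype), 4 held an array far from the other 4, and chance alone flags about 1 group in 20. Among the members this was Xrn1, at 8.07 on DicerCN replicate 3 against 8.43 to 8.53 on the other DicerCN arrays. Among the list genes, Pan2, a deadenylase subunit, stood at 8.97 on control replicate 5 against 9.15 to 9.21. Celf4, a paralog of Celf1, stood at 6.81 on DicerCN replicate 5 against 6.12 to 6.30 on the other DicerCN arrays. Rbm10, a splicing regulator, stood at 8.83 on control replicate 2 against 8.59 to 8.66.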

How the results depend on the processing

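Of 240 refitted changes of the members, 222 kept their sign and their side of the threshold. Some refits, such as the variance trend and the replicate block, cannot move an estimate and change only its error. The Tdrd7 call was lost with the macrophage score (−0.62, limma adjusted p = 0.0877), with the pigment epithelium score (−0.40, adjusted p = 0.117) and without DicerCN replicates 4 and 5 (−0.36, adjusted p = 0.0508), so that the count of members that fell was 0 in each, and the cause was not tested. Otherwise 15 member values turned sign, none of them called. Stau1 went to −0.018 with array weights, −0.0017 with the neural retina score, −0.013 with the striated muscle score and −0.058 without control replicate 4 and DicerCN replicate 5, and ran from −0.075 to 0.084 with 1 array left out. Dcp1a went to −0.0019 with the neural retina score and −0.018 without those 2 arrays, Edc4 to 0.028 with the macrophage score, Xrn1 to −0.044 with the pigment epithelium score and Ddx6 to 0.081 after quantile normalization. With 1 array left out Edc4 ran from −0.078 to 0.018 and Ddx6 from −0.098 to 0.0091. Quantile normalization also moved Tdrd7 to −0.41, Rbm24 to −0.14, Caprin2 to −0.049 and Celf1 to 0.21. Of 1078 refitted changes of list genes 7 turned sign: Celf2 to −0.091 with the neural retina score, −0.0072 with the pigment epithelium score and −0.042 without DicerCN replicates 4 and 5, Celf4 to −0.0067 with the neural retina score, Rbm38 to 0.0048 with the pigment epithelium score, and Snd1 and Tdrd1 to 0.012 and 0.036 with the macrophage score. The Celf1 minus Celf2 difference turned to 0.24 with the neural retina score, 0.079 with the pigment epithelium score and 0.16 without DicerCN replicates 4 and 5, and the Stau1 minus Stau2 difference to 0.081 with the pigment epithelium score, in added comparisons with no test.

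Over all genes, 511 rose and 792 fell. The macrophage score gave 55 and 150, the pigment epithelium score 290 and 372, the neural retina score 482 lower, and leaving out DicerCN replicates 4 and 5 450 lower. With 1 array left out the counts ran from 303 to 503 and from 481 to 840. Over the lists, 9 rose and 7 fell. The macrophage score gave 2 and 0, the pigment epithelium score 4 and 3, the neural retina score 1 lower, the lens score 3 lower, leaving out control replicate 4 and DicerCN replicate 5 4 lower, and leaving out DicerCN replicates 4 and 5 1 lower. With 1 array left out they ran from 8 to 9 and from 2 to 8.

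The labels number replicates 1 to 5 in both groups and do not say whether a number marks a litter or a day. Deviations of same-numbered arrays had correlations from −0.088 to 0.19, over 0.1 in 1 of 5 pairs. With so few pairs this cannot exclude a pairing, and the main fit was unpaired. With the replicate number as a block Tdrd7 stood at −0.52 (adjusted p = 0.0137), and the list genes that fell numbered 3, 5 of the 16 list calls were lost and Sox2 passed (adjusted p = 0.0334).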
